A study of Mus musculus with 4 samples.

Results

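Late spermatids high in protamine and Car2 transcripts were studied by droplet single-cell RNA sequencing of the testes of outbred ICR mice. In each of the libraries A0 and A10, the 700 cells with the highest score were taken, where the score was the mean deposited value (transcripts per 10000 of the cell, plus 1, as a natural log) over 1700080E11Rik, Cyp2a12, Prm2, Prm1, Car2 and Tmod4. This gave 1400 late spermatids of 18623 cells in both libraries (7.83% of 8941 A0 cells and 7.23% of 9682 A10 cells) and of 27060 cells in all 4 libraries of the series. A0 mice received the vehicle, water, and A10 mice received alginate oligosaccharides (AOS), sugar chains cut from a seaweed polymer, at 10 mg/kg body weight, both by oral gavage and both without busulfan. The remaining libraries came from mice given busulfan, a drug that kills dividing germ cells, without (B0) or with AOS at the same dose (BA10). Per the study's methods the males were 3 weeks old at the start of dosing, spermatozoa were washed off the tubules before digestion, and the cells of 6 mice were combined into 1 library per group. With 1 library per group there was no replicate, so no difference between groups was tested. All intervals are 95% intervals that cover counting error only.

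Spermatids are haploid cells that turn from round cells into sperm. As they elongate, histones give way first to transition proteins and then to protamines, which pack the DNA of the sperm head, while transcription stops and stored messages are translated days later. In the same period the tail, its sheath of mitochondria and the acrosome, the enzyme-filled cap of the head, are completed.

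The score formed no separate group at its upper end. In A0 it was 3.69 in the highest cell, 3.31 in the median late spermatid, 3.15976 in the lowest one and 3.15961 in the highest cell left out. In A10 the same values were 3.84, 3.41, 3.26141 and 3.26063. Within 0.1 of the lowest member score lay 244 late spermatids and 247 other cells in A0, and 243 and 308 in A10, so the 700 are the upper end of a continuous range. The median of the other cells was 1.24 in A0 and 1.37 in A10. Scrublet, which calls droplets holding more than 1 cell, marked 5 of the A0 late spermatids (0.714%) against 8.52% of other A0 cells, and 1 of the A10 late spermatids (0.143%) against 8.28%. The 2 libraries shared 135 cell barcodes, of which 14 belonged to A0 late spermatids and 2 to late spermatids in both.

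**Figure D1:**
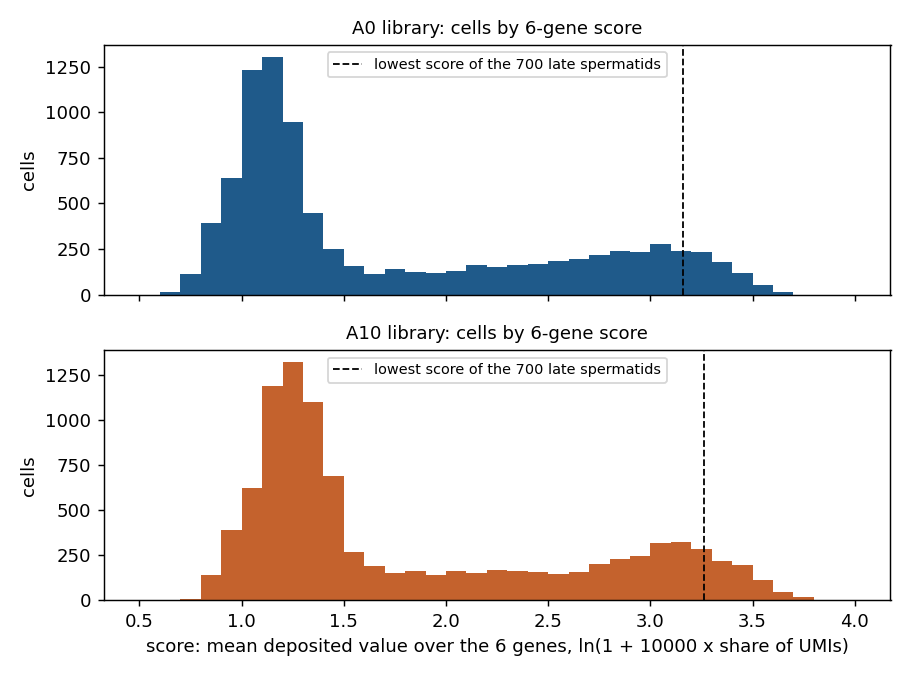
Number of cells (y axis) by score (x axis, in bins of 0.1 on the natural log scale) in A0 (top) and A10 (bottom), with the lowest score of the 700 late spermatids dashed at 3.16 and 3.26. Most cells lie in the hump near the median of 1.24 in A0 and 1.37 in A10, and no gap separates the late spermatids from the cells just below them.

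The 6 score genes lie at separate places in the genome, except for the protamines. Prm1 and Prm2 encode the protamines and lie next to each other on the minus strand of chromosome 16 (mm10, Prm1 from 10796326 to 10805839 and Prm2 from 10791380 to 10796134, protein coding in GENCODE M21). The same strand of that chromosome holds Prm3 (10790505 to 10790914) and Tnp2 (10787936 to 10788660), so protamine and transition protein genes form a cluster. Car2, a carbonic anhydrase that converts carbon dioxide to bicarbonate, lies on chromosome 3 (14886273 to 14900770, plus strand), as does Tmod4 (95124476 to 95129209, plus strand), a tropomodulin that caps actin filaments. Cyp2a12, a cytochrome P450 enzyme, lies on chromosome 7 (27029081 to 27037375, plus strand), and 1700080E11Rik on chromosome 9 (105143342 to 105145092, minus strand).

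Promoter sequences from RefSeq (GRCm38.p6, the same assembly as mm10) were matched for 4 of the 6 score genes, all but Car2 and 1700080E11Rik, and for the neighbours Tnp2 and Prm3 and for Tnp1. They are shown because these genes were abundant in the same cells: bases -45 to -16 before the RefSeq start, 5′ to 3′ on the strand of the gene, with TATAA on either strand in capitals. In Prm1 and Tmod4 this stretch overlaps an annotated 5′ UTR of a GENCODE transcript. In Prm2 it lies inside the GENCODE gene span given above, not upstream of it.
Prm1, chr16:10796839-10796868, minus strand: ggccactagtatcTATAAgaggaagagggt
Prm2, chr16:10792121-10792150, minus strand: cagtggggtttacctTTATAtatgagccct
Tnp2, chr16:10788671-10788700, minus strand: tcggcccagctaTATAActaggggctgtgg
Cyp2a12, chr7:27029045-27029074, plus strand: tgggagTATAAaggtagtatctcagccttg
Prm3, chr16:10790930-10790959, minus strand: acccaccagtctcacactctctcgctaccc
Tmod4, chr3:95124469-95124498, plus strand: ataataaaatgctgagctcactgttccccc
Tnp1, chr1:73015915-73015944, minus strand: ctcacaatggctaaggccttaaatacatgg
TATAA began at -32 in Prm1, -30 in Prm2 (as TTATA, on the opposite strand), -33 in Tnp2 and -39 in Cyp2a12. The letters occurred on either strand in 22.8% of all 32851 promoters over the 250 bases before the start, and on the gene's own strand within 50 bases in 4.93%. TGACG, the core of a cyclic AMP response element, was also searched on both strands over 250 bases: none of these 7 promoters held it, against 17.8% of all promoters. These are matches of letters and say nothing of which factor was bound.

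The late spermatids carried fewer transcripts of fewer genes than the other cells of the library. Each transcript was counted once through its unique molecular identifier (UMI), and the late spermatids held 8021872 UMIs in A0 and 7231054 in A10. The median per cell was 10085 UMIs (9843 to 10345) in A0 late spermatids against 12959 in the other A0 cells, and 8951.5 (8620 to 9272) against 11167.5 in A10. The median number of genes was 1936.5 against 3421 in A0 and 1801.5 against 3138 in A10. With every cell thinned to 5000 UMIs the gap in genes remained, at 1330 against 2159 in A0 and 1305 against 2142 in A10. The 700 cells scored highest for Odf1 and Tssk6, many of them shared with the late spermatids, were nearer. They had medians of 11177 UMIs and 1451.5 genes after thinning in A0, and 9340 and 1400 in A10. The smallest cells of the libraries had 7687 UMIs in A0 and 6716 in A10, and 20.9% of the A0 late spermatids lay within 10% of that limit against 5.10% of other cells (20.3% against 7.30% in A10). Late spermatids with fewer UMIs than the limit are therefore not among the cells described. The 50 most abundant genes took 38.5% of UMIs in A0 late spermatids and 16.0% in the other cells, and Prm1 and Prm2 alone took 14.2% against 2.14%. In A10 these shares were 41.3% against 17.0%, and 16.7% against 2.55%.

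For the score genes, which chose the cells, the levels are a description. Levels are UMIs pooled over the cells of a set and given as CPM, the count out of every 1000000 UMIs. Prm2 was at 81592 CPM in A0 late spermatids and 84551 in A10, against 11790 and 12392 in the other cells. Prm1 was at 60691 and 82722, against 9591 and 13134. Both protamines were thus far higher in the late spermatids than in the other cells of the same library. Car2 was at 1535 and 1551 CPM against 225 and 231, 1700080E11Rik at 939 and 881 against 119 and 112, Cyp2a12 at 221 and 306 against 25.6 and 34.6, and Tmod4 at 165 and 182 against 17.3 and 19.3. Prm2 ranged over single A0 late spermatids from 44773 to 180492 CPM with a median of 76331, whereas Prm1 ranged from 2822 to 99434 with a median of 62998. Prm1 thus reached much lower in some members than Prm2 did. In A10 the same ranges were 45724 to 197309 (median 79854) and 4369 to 125437 (median 84856).

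Prm1 and Prm2 UMIs were also present in cells that should hold little of them. They were found in 100% of late spermatids, of other cells and of 700 comparison cells per library with the highest spermatocyte score, which shared 0 cells with the late spermatids and had a median depth of 14677 UMIs in A0. Pooled Prm2 was 3019 CPM in those A0 spermatocyte cells. Presence of a protamine UMI therefore separated none of these sets. Single-cell levels overlapped at the extremes, with Prm2 reaching 60247 CPM in the highest A0 spermatocyte cell and starting at 44773 in late spermatids. The lower and upper quartiles of Prm2 were 1203 and 2262 CPM in A0 spermatocyte cells, and 66433 and 93772 in A0 late spermatids. Car2 UMIs were in 100% of A0 late spermatids and 55.0% (51.2 to 58.7) of the spermatocyte cells, Cyp2a12 UMIs in 90.9% and 10.3%, and Tmod4 UMIs in 87.1% and 10.1%, at median depths of 10085 and 14677 UMIs. In A10 these shares were 100% and 57.4% for Car2, 92.7% and 10.0% for Cyp2a12, and 86.6% and 8.0% for Tmod4. Car2, Cyp2a12 and Tmod4 are score genes, so the choice of cells favours high shares in late spermatids, and the shares are a description.

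**Figure D2:**
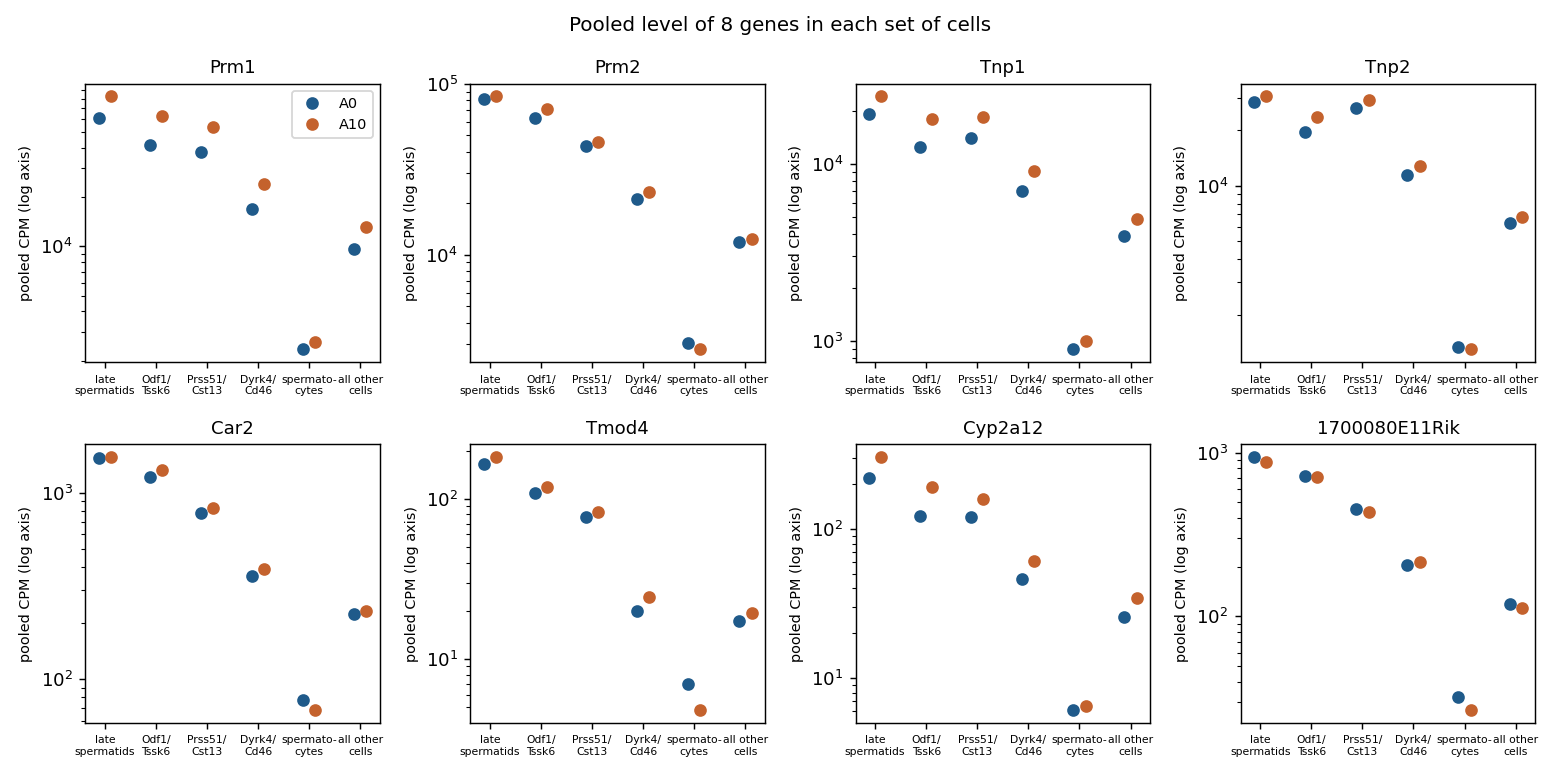
Pooled level in CPM (log y axis) of 8 genes in the late spermatids, in 3 neighbouring sets of spermatids, in spermatocyte comparison cells and in all other cells of the library, 1 point per library (A0 blue, A10 orange; 700 cells per set, sets may share cells). Prm2 falls from 81592 CPM in A0 late spermatids to 3019 in spermatocyte cells, and Tnp2 is nearly as high in the Prss51/Cst13 set (26513) as in the late spermatids (28679).

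The name late spermatids was checked on genes outside the score. Tnp1 and Tnp2, the transition proteins, were at 19253 and 28679 CPM in A0 late spermatids against 3895 and 6317 in the other cells, and at 24203 and 30679 against 4860 and 6795 in A10. Sycp3, part of the protein axis of meiotic chromosomes, was at 18.0 CPM against 175.5 in A0 and 18.3 against 196 in A10. Acrv1, an acrosome protein of round spermatids, was at 25.2 against 162 and 30.7 against 148. Transition protein transcripts were thus high and these meiotic and acrosomal ones low, where 68.7% of all genes in A0 and 69.9% in A10 were at least 2-fold lower. Hils1, a spermatid linker histone, was not higher (log2 -0.13 in A0 and -0.10 in A10). Tnp2 was nearly as high in the A0 cells scored highest for Prss51 and Cst13, so it does not set the late spermatids apart from neighbouring spermatids.

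Across all genes seen in at least 5% of either set of cells, 752 of 9236 (8.14%) were at least 2-fold higher in late spermatids than in the other A0 cells and 6349 (68.7%) were at least 2-fold lower, on log2 of CPM plus 1. In A10, 702 of 8935 (7.86%) were higher and 6247 (69.9%) lower. Of 8897 genes kept in both libraries, 673 were 2-fold higher in both, 6028 lower in both and 0 went opposite ways. The median gene was at log2 -1.75 in A0 and -1.77 in A10. After centring on that median the counts were 2454 higher and 1709 lower in A0, and 2346 and 1514 in A10, so a list is best read against the median gene. Since the cells were chosen from the same values, nothing was tested here.

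Most chromatin packing genes were higher in late spermatids. Of 7 genes, 6 were at least 2-fold higher in both libraries, Prm1 and Prm2 by choice, and the median was log2 2.18 in A0 and 2.17 in A10. Without Prm1 and Prm2, 4 of 5 genes were at least 2-fold higher, with a median of 1.76 in A0 and 1.74 in A10, beside 8.14% of all genes higher in A0 and 7.86% in A10. Prm3 was at 2983 CPM against 878 in A0 (log2 1.76) and 3717 against 1114 in A10 (1.74). H1fnt, a linker histone of elongating spermatids, was at log2 1.64 and 1.57. Hils1, another spermatid linker histone, was the exception, at 1286 CPM in A0 late spermatids against 1409 in the other cells (-0.13) and 1182 against 1263 in A10 (-0.10). Hils1 was instead at 4065 CPM in the A0 cells scored highest for Prss51 and Cst13. Among germ cell histone variants, H2afb1, which replaces H2A in spermatids, was at 1767 CPM against 336 (log2 2.39 in A0, 2.44 in A10), whereas the replacement histones H3f3a (-2.85) and H3f3b (-2.76) and the DNA damage histone H2afx (-3.31) were lower in A0, as they were in A10 (-2.81, -2.74 and -3.05).

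Tail genes lay on both sides of 0, mostly above the median gene. Of 12 genes of the outer dense fibres and fibrous sheath, 5 were at least 2-fold higher and 2 lower in each library, with a median of log2 0.43 in A0 and 0.48 in A10. Over all genes 8.14% were higher and 68.7% lower in A0, and 7.86% and 69.9% in A10. Oaz3, an antizyme made only in spermatids, was highest among them (7078 CPM against 1524 in A0, log2 2.21), followed by Akap4, the main fibrous sheath protein (1.75), Fscb (1.40), Odf2 (1.23) and Spa17 (1.06). Ropn1l (-2.48) and Odf3 (-1.44) were lower. Akap3, the partner of Akap4 in the sheath, was at -0.51. The members of one structure were therefore unequal at the RNA level.

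Genes of sperm mitochondria and energy supply also lay on both sides of 0. Smcp, a cysteine-rich protein of the mitochondrial sheath, was at 14753 CPM in A0 late spermatids against 2815 (log2 2.39) and at 13480 against 2592 in A10 (2.38). The glycolytic genes Gapdhs (2.04), Hk1 (1.52) and Pgk2 (1.33), enzymes anchored in the sperm tail or made only in germ cells, were also at least 2-fold higher in A0, whereas the aldolase gene Aldoart1 was at 0.38. Ldhc, the germ cell lactate dehydrogenase, was lower (-1.68 in A0, -1.85 in A10), as were Gk2 (-3.50) and the cytochrome oxidase subunits Cox6b2 (-2.35) and Cox8c (-2.37). In all, 4 of 14 genes were higher and 6 lower in each library, beside 8.14% of all genes higher and 68.7% lower in A0 and 7.86% and 69.9% in A10.

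Acrosome genes all went one way. All 15 were at least 2-fold lower in late spermatids in both libraries, with a median of log2 -2.68 in A0 and -2.46 in A10, from Spaca7 (-1.22 in A0) to Zpbp2 (-3.89). Izumo1, the sperm protein that binds the egg, was at 24.8 CPM against 107 in A0. Acr, the protease acrosin, was at 29.7 against 215. The cells scored highest for Dyrk4 and Cd46 held Acrv1 at 323 CPM in A0, against the 25.2 CPM of the late spermatids. Against the background of 68.7% of genes lower in A0 and 69.9% in A10, a share of 15 of 15 is higher but was not tested.

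**Figure D3:**
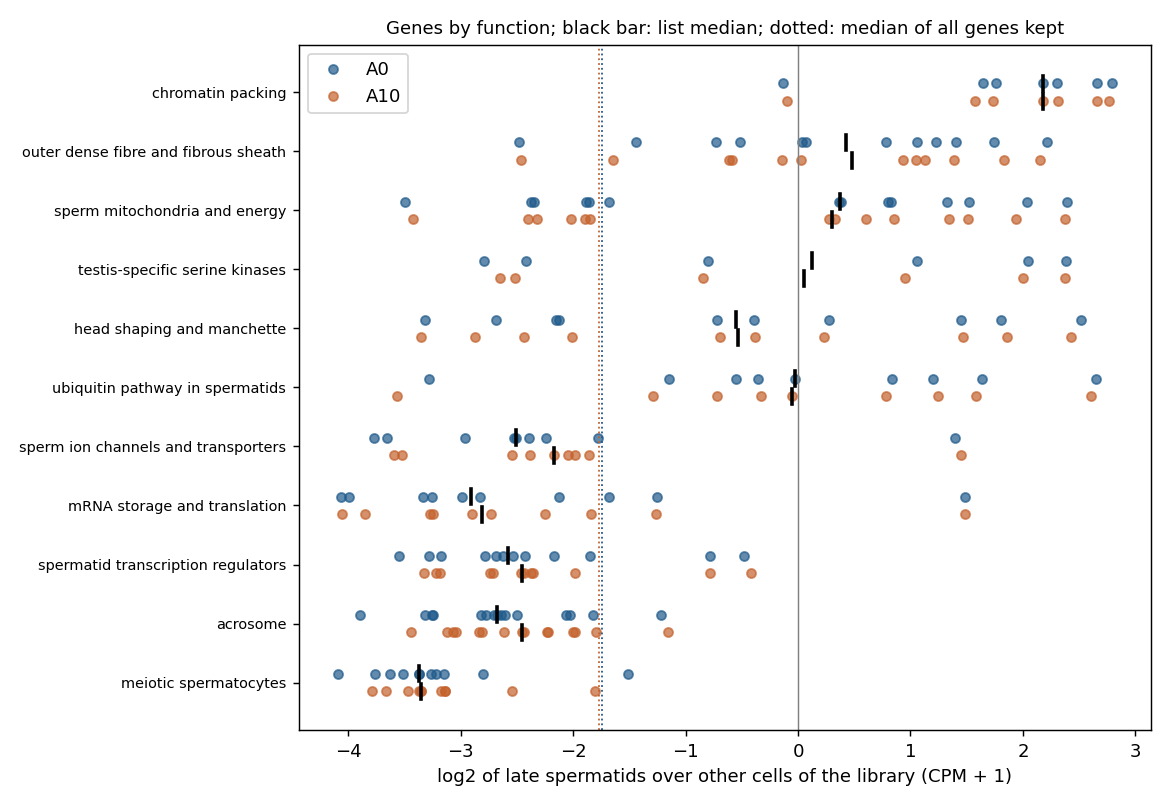
Log2 of late spermatids over the other cells of the library (x axis, CPM plus 1) for each gene of 11 functional lists (rows), A0 in blue and A10 in orange, with the list median as a black bar and the median of all genes kept (-1.75 and -1.77) dotted. Chromatin packing genes lie at the right with Hils1 near 0, and all acrosome and kept meiotic genes lie at least 2-fold to the left.

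Smaller groups held genes on both sides, apart from the transcription regulators. The counts of lower genes are read against the 68.7% of all genes that were at least 2-fold lower in A0 and 69.9% in A10. Counts of higher genes are read against the 8.14% of all genes that were at least 2-fold higher in A0 and 7.86% in A10. Among testis-specific serine kinases, Tssk6, needed for packing of sperm chromatin, was at 2069 CPM against 397 in A0 (log2 2.38) and Tssk3 at 2.05, whereas Tssk4 (-2.42) and Tssk5 (-2.79) were lower. Among head shaping genes, Spem1, which acts in removal of cytoplasm, was at log2 2.52 in A0, Hook1, a microtubule linker, at 1.80 and Spata6, of the head-tail junction, at 1.45, and 4 of 10 genes were lower. Of 9 ion channel and transporter genes 8 were lower, among them the 4 Catsper channel genes (-1.78 to -3.78 in A0), and only Atp1a4, the sperm sodium pump, was higher (1.40). Of 10 genes of mRNA storage and translation, 9 were lower, including Pabpc1 (-3.99), the poly(A)-binding protein, and Ybx2 (-1.25), which holds protamine messages in store. Paip2, an inhibitor of the poly(A)-binding protein, was the exception (1.48). Of 12 spermatid transcription regulators 10 were lower and none of the 12 was 2-fold higher, with Crem at -1.85 and Tbpl1 at -3.55. Of 9 ubiquitin pathway genes 3 were higher, Ubqlnl, a ubiquilin-like gene, most (2.65 in A0 and 2.61 in A10), and 2 lower.

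Relatives of Car2 and Tmod4 were near 0 or much lower than these genes. Of 15 carbonic anhydrases in the table, Car2 was at 1535 CPM in A0 late spermatids and the next, Car4, at 4.11, with 7 of the 15 at 0 UMIs in A0. Of the 4 tropomodulins, Tmod4 was at 165 CPM and the next, Tmod2, at 25.8, lower than the 35.6 of the other cells. Cyp2a5 had 0 UMIs in late spermatids of either library. These counts are of 3′ ends and do not depend on transcript length, but how well each 3′ end is captured was not tested.

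Genes outside the score were ranked by their ratio of late spermatids over other cells, not by level, among genes seen in at least 5% of late spermatids. The highest in both libraries were Klk1b3, 1700016H13Rik, Ubqlnl, Bmp7, Ttc24, Bpifa3, Prkar2a, Gm614, 1700015G11Rik, Ppp2r2b, Klk1b8 and Glul. Klk1b3 and Klk1b8 encode kallikrein-related peptidases of a family of near copies, between which reads may be divided, so their levels are uncertain. Klk1b3 was at 136 CPM against 19.9 in A0 and 213 against 31.5 in A10. Bmp7, a secreted growth factor, was at 56.1 CPM against 7.81 in A0 and 51.6 against 7.67 in A10. Prkar2a, the regulatory subunit of protein kinase A that binds anchoring proteins, was at 961 against 152 and 844 against 140. Glul, glutamine synthetase, was at 1481 against 238 and 1297 against 221. The A0 cells scored highest for Odf1 and Tssk6, a set that shares many cells with the late spermatids, were close to them, with Bmp7 at 44.4 CPM, Prkar2a at 768 and Glul at 1193. At the low end stood Cdc42ep3, Nol8, Cenpe, Fsip2, Nipbl, Sgol2a, Dynlt1f, Cenpf, Cfap97, Rfx8, Psip1 and Lyar. Cenpe, Cenpf and Sgol2a act at centromeres and Nipbl loads cohesin onto chromosomes. Cdc42ep3 had the lowest ratio, at 11.1 CPM against 290 in A0 (log2 -4.59) and 12.7 against 323 in A10 (-4.56).

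Markers of other testis cells were near 0 with a few exceptions. The summed level of 5 Leydig cell genes was 5.24 CPM in A0 late spermatids and 4.29 in A10, against 7.47 and 9.72 in the other cells. Of 7 macrophage genes summing to 50.6 CPM in A0 (48.1 in A10), C1qb alone made up 49.2, while C1qa was at 0.499 and C1qc at 0.125, although the complement C1q chains are made together in macrophages. C1qb UMIs were in 40.0% (36.3 to 43.7) of A0 late spermatids, 10.6% of other A0 cells and 4.0% of the spermatocyte cells. They were in 38.3% of the A0 cells scored highest for Odf1 and Tssk6 and in 27.3% of those scored highest for Prss51 and Cst13, so C1qb was not particular to the late spermatids. Among 6 Sertoli cell genes summing to 111 CPM in A0 (105 in A10) against 39.4 (42.0), Aard was at 73.1 against 21.5, Clu at 22.2 against 9.55 and Ctsl at 13.1 against 6.83, whereas the defining Sox9 was at 0.873 and Amh at 0. The 4 peritubular genes summed to 17.0 CPM against 5.11 in A0 and 12.2 against 4.19 in A10. Of these Myl9 was at 11.7 CPM against 2.75 and Myh11 at 4.74 against 0.567 in A0, whereas the defining Acta2 was at 0.374 against 1.31. The part of RNA from other cell types in these results was not tested. Of 4 endothelial genes summing to 6.86 CPM (6.36 in A10) Egfl7 was at 5.36, and 4 red blood cell genes summed to 0.623 (1.94). Of 12 meiotic genes the 11 kept were all at least 2-fold lower, summing to 92.6 CPM against 1021 in A0, beside 68.7% of all genes lower in A0 and 69.9% in A10. The 8 spermatogonial genes summed to 33.0 CPM against 54.6 in A0 and 33.5 against 56.1 in A10, with Id4 at 9.97 against 36.4 and Uchl1 at 14.0 against 6.70 in A0.

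Among the neighbouring sets compared, the late spermatids overlapped most with the 700 cells scored highest for Odf1 and Tssk6. With that set they shared 318 of 700 cells (45.4%) in A0 and 331 (47.3%) in A10. They shared 40 (5.71%) and 21 (3.00%) with the Prss51 and Cst13 set, and 4 and 20 with the Dyrk4 and Cd46 set. Odf1 itself was at 193 CPM in A0 late spermatids, 371 in the Odf1 and Tssk6 set, and 147 and 172 in the other 2. Ropn1, of the fibrous sheath, was at 875 CPM in A0 late spermatids and 1890 in the Prss51 and Cst13 set, while Smcp was at 14753 and 7231. In the Odf1 and Tssk6 set, Ropn1 was at 923 and Smcp at 12708, close to the late spermatids with which it shares many cells. Without replicate libraries these differences could not be tested.

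Within the late spermatids the transition proteins spanned a wide range. Tnp1 ran from 386 to 39349 CPM over single A0 late spermatids with a median of 20940, and from 523 to 45663 with a median of 26612 in A10. Tnp2 ran from 880 to 54360 (median 32106) and from 1304 to 53571 (median 33124). Neither gene was part of the score. The cells of each library were therefore ordered by their summed Tnp1 and Tnp2 CPM and divided into quartiles of equal size, a split chosen after the values were seen, so the following is a description. The summed level lay between 1565 and 26481 CPM in the lowest A0 quartile and between 68196 and 83929 in the highest. Depth moved little along it, with medians of 10032 and 9597 UMIs in the lowest and highest A0 quartiles and 8545 and 8794 in A10.

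The protamines went opposite ways along this order. Prm2 was at 108538 CPM in the lowest transition protein quartile of A0 and 70656 in the highest, whereas Prm1 was at 48768 and 68448. In A10, Prm2 was at 114818 and 72832 and Prm1 at 64638 and 90923. Prm1 UMIs per Prm2 UMI were 0.449 (0.446 to 0.453) in the lowest A0 quartile and 0.969 (0.962 to 0.976) in the highest, and 0.563 and 1.25 in A10. Car2 followed Prm2, at 2254 CPM against 1202 in A0 and 2218 against 1238 in A10. So did 1700080E11Rik, at 1374 against 735 and 1276 against 697. Cyp2a12 followed Prm1, at 144 against 261 in A0 and 203 against 344 in A10, and Tmod4 showed no common direction, at 177 against 154 in A0 and 186 against 198 in A10. Choosing cells by a high mean of these genes bears on how they vary against each other.

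**Figure D4:**
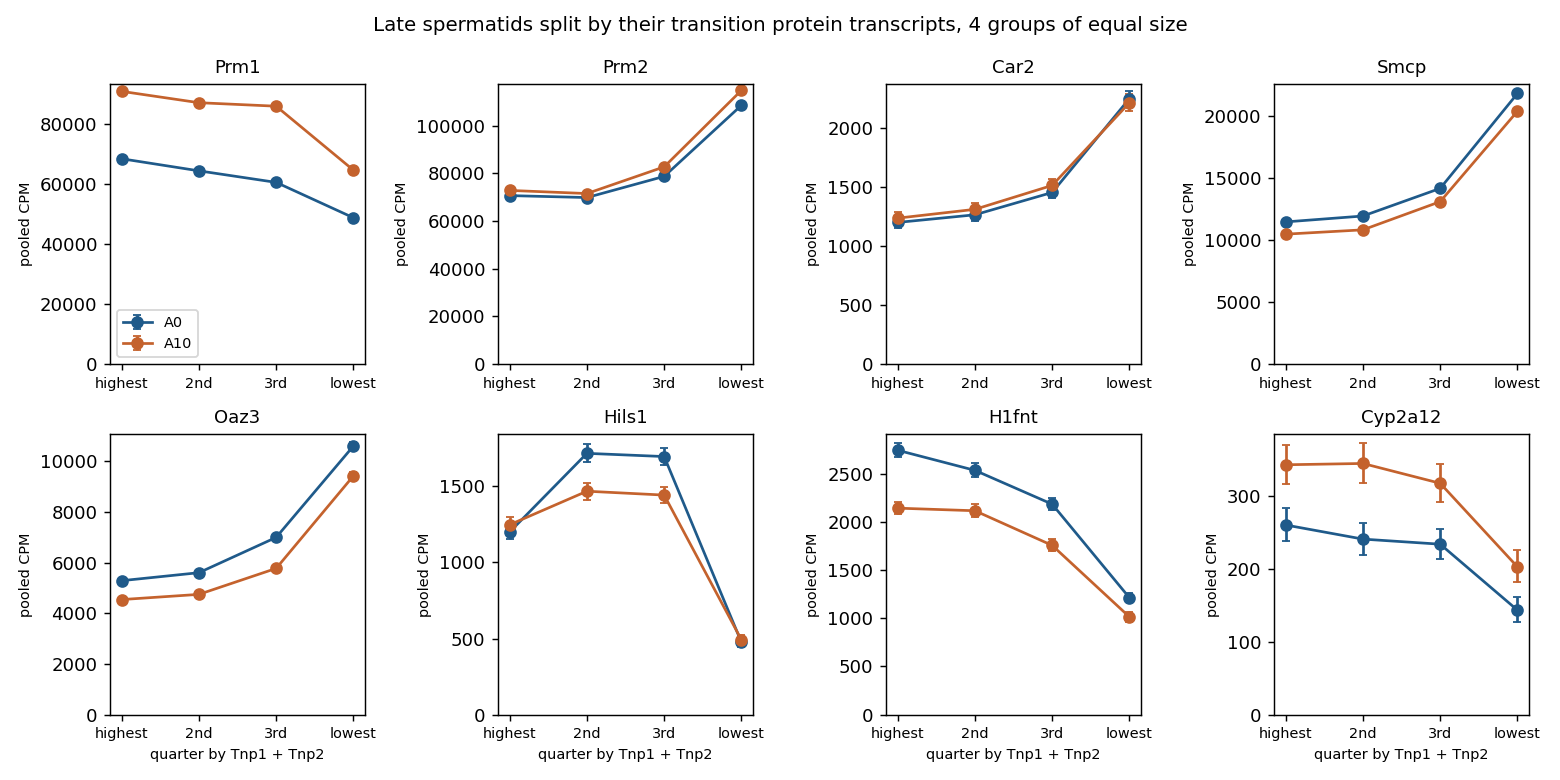
Pooled level in CPM (y axis, from 0) of 8 genes in quartiles of the late spermatids ordered from the highest to the lowest summed Tnp1 and Tnp2 (x axis), A0 in blue and A10 in orange, with 95% Poisson intervals that are mostly smaller than the points. Prm2, Car2, Smcp and Oaz3 are highest in the lowest quartile, where Prm1, Hils1, H1fnt and Cyp2a12 are lowest.

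The Spearman correlations use the same 700 cells and values as the quartiles, so they restate that order and add no separate support. They are descriptions over cells that share a library and a limited number of UMIs each. Prm2 with summed Tnp1 and Tnp2 CPM was at -0.65 in A0 and -0.68 in A10, Car2 at -0.55 and -0.57, Oaz3 at -0.71 and -0.71, Smcp at -0.67 and -0.70, and Prm1 at 0.38 and 0.38. UMIs per cell were at -0.05 and 0.05. Among score genes, Prm2 with Car2 was at 0.60 and 0.58 and Prm2 with Prm1 at -0.02 and -0.03. The same choice of cells bears on all correlations that involve score genes.

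Of 2704 genes seen in at least 20% of either quartile in both libraries, 396 were at least 2-fold lower in the lowest than in the highest transition protein quartile in A0, 327 in A10 and 292 in both, while 40, 39 and 14 were at least 2-fold higher. The median of all was log2 -0.08 in A0 and -0.06 in A10. Hmgb4, a germ cell HMG-box protein, was among the lowest, at 1077 CPM against 8276 in A0 and 1401 against 8488 in A10. Tex37 was at 244 against 1983, Fam71f1 at 110 against 1101, Tceb1, elongin C, at 79.7 against 491, and Spcs2, a signal peptidase subunit, at 209 against 1693 in A0. Listed genes with the same direction included Meig1, of the manchette (1511 against 6084 in A0, 2067 against 6878 in A10), Spata19, of sperm mitochondria (753 against 2944), Ropn1 (310 against 1146) and Spag4 (128 against 456). Genes higher in the lowest quartile included Smcp (21814 against 11459 in A0, 20384 against 10471 in A10), Oaz3 (10600 against 5285, 9421 against 4540) and Spem1 (2004 against 912, 1854 against 893). Tbc1d20, which regulates Rab proteins, was at 758 against 266 in A0 and 675 against 250 in A10, and Akap12, a kinase anchor, at 2110 against 966 and 1886 against 841. Akap4 moved little, at 1786 against 2329 in A0 and 1836 against 1961 in A10.

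Hils1 and Ldhc did not follow this order evenly. From the highest to the lowest quartile, Hils1 was at 1200, 1717, 1696 and 476 CPM in A0 and 1248, 1468, 1443 and 492 in A10. Ldhc was at 2207, 3006, 3099 and 1719 CPM in A0. Both were therefore highest in the middle of the order and lowest at its end.

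By score, from the lowest to the highest quartile of late spermatids, Hils1 was at 1931, 1598, 955 and 656 CPM in A0 and at 1629, 1355, 1026 and 742 in A10, and Ldhc at 3412, 2780, 2145 and 1758 in A0. Tnp2 was at 32765 in the lowest and 20257 in the highest score quartile of A0, and Prm3 at 2799 and 3211. Outside the score, the 6 genes with the largest ratio of the highest over the lowest score quartile in both libraries were Coil, Trpm4, Tbcd, Klk1b4, Fam234a and Mxd1. They were at low levels, between 3.08 CPM (Trpm4, 6 UMIs) and 14.4 CPM (Klk1b4, 28 UMIs) in the lowest A0 quartile. In the highest A0 quartile Trpm4 had 14 UMIs and Klk1b4 51. Their intervals overlapped, at 1.13 to 6.71 and 3.95 to 12.1 CPM for Trpm4, and 9.56 to 20.8 and 19.6 to 34.6 for Klk1b4. The genes were picked as the largest ratios along the score itself, so a rise was not tested.

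The comparison of A10 with A0 asked what AOS dosing alone went with in these cells. The smallest cells had 7687 UMIs in A0 and 6716 in A10, so the lower limit of depth differed between the libraries as well. Of 5699 genes, 8 (0.14%) were at least 2-fold higher and 5 (0.0877%) at least 2-fold lower in A10 late spermatids, around a median of log2 -0.06. The balance turned to 3 higher and 10 lower with 1400 cells per library or with Prm1 and Prm2 out of the score, and to 23 and 34 with 350 cells, while 10 CPM added left 0 and 1. Among the other cells it was 4 (0.0438%) and 6 (0.0658%) of 9125 genes, around -0.03. The other cells held 142791102 UMIs in A0 and 136483541 in A10, against 8021872 and 7231054 in late spermatids. The shares of the sets thus come from sums of unlike depth. None of the score genes and none of the chromatin packing genes was among those past 2-fold. The median of the 7 chromatin packing genes was log2 0.10 in late spermatids, 5 above 0 and 2 below, and 0.11 in the other cells. Without Prm1 and Prm2, which helped to choose the cells, 3 of 5 genes were above 0 and 2 below. The late spermatid median of the 7 genes lay between 0.08 and 0.23 under the other settings tried.

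Prm1 differed most among the packing genes. Prm1 and Prm2 are score genes, so the choice of cells bears on their values in late spermatids. It was at 82722 CPM in A10 against 60691 in A0 late spermatids, log2 0.45 (0.44 to 0.45). The other cells showed the same size of difference, at 13134 against 9591 CPM (0.45), and so did the spermatocyte cells in direction, at 2615 against 2347. Prm2 was at 0.05 (0.05 to 0.06) in late spermatids and 0.07 in the other cells. Prm1 UMIs per Prm2 UMI were accordingly 0.744 (0.741 to 0.747) in A0 and 0.978 (0.975 to 0.982) in A10 late spermatids, 0.814 and 1.06 in the other cells, and 0.777 and 0.936 in the spermatocyte cells. The ratio was thus higher in A10 in all 3 sets of cells. Protamine UMIs were in 100% of the cells of each set, and the part of them from other cells was not tested. The sets are therefore not shown to be separate observations. The mix of cell types among the other cells was not held equal between the libraries. Differences of AOS dosing, of the pooled mice and of the libraries cannot be told apart with 1 library per group.

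Several other abundant genes were at like values in both sets of cells, and others were not. Tnp1 was at log2 0.33 in late spermatids and 0.32 in the other cells, Prm3 at 0.32 and 0.34, Cyp2a12 at 0.46 and 0.42, Klk1b3 at 0.65 and 0.63 and 1700015G11Rik at 0.47 and 0.46. H1fnt was lower in A10, at -0.29 in late spermatids and -0.22 in the other cells. Car2 was at 0.01 (-0.02 to 0.05) in late spermatids and 0.04 in the other cells. Car2 and Cyp2a12 are score genes, so the choice of cells bears on these values. In late spermatids 10 of 12 outer dense fibre and fibrous sheath genes were below 0. Their median was -0.21, and -0.14 in the other cells. All 9 ubiquitin pathway genes were below 0 in late spermatids, with a median of -0.23, and -0.19 in the other cells. None of these genes was lower by 2-fold. Of all 5699 genes 2333 were above 0, so most genes were below it as well. Gpx4, a selenoprotein of the sperm midpiece, was at -0.29 in late spermatids and -0.07 in the other cells.

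**Figure D5:**
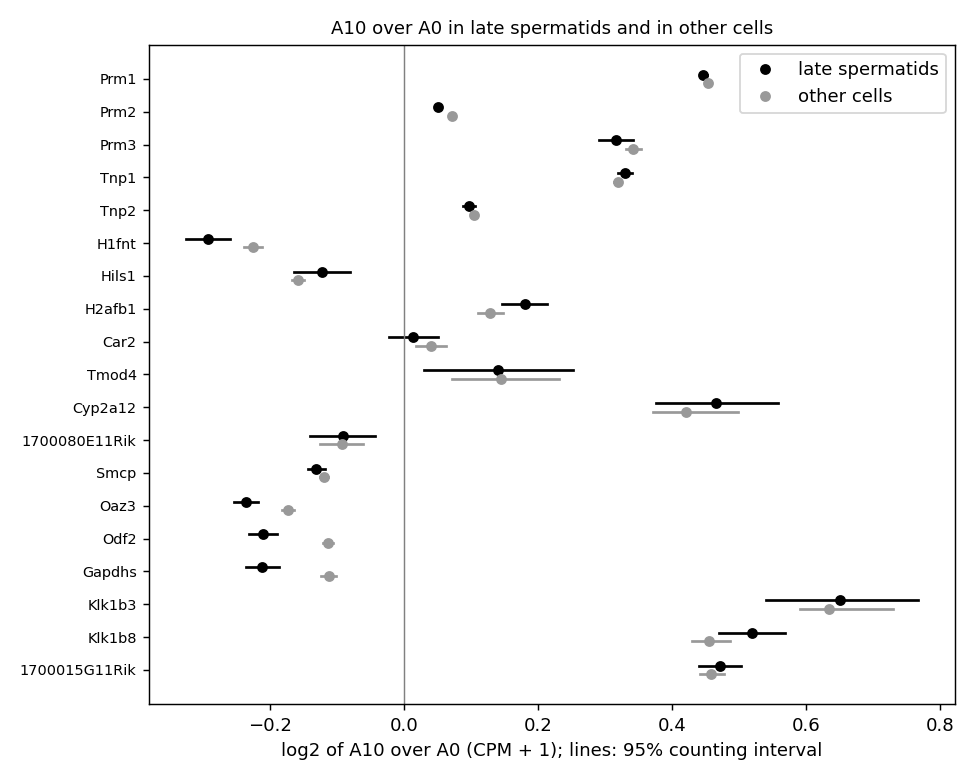
Log2 of A10 over A0 (x axis, CPM plus 1) for 19 genes (rows) in late spermatids (black) and in the other cells (grey), with lines for 95% counting intervals of the ratio. Prm1 lies at 0.45 in both sets, Car2 at 0.01 and 0.04, and Gapdhs, Odf2, Oaz3 and H1fnt lie further below 0 in late spermatids than in other cells.

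The genes that differed most were rare. Ddx20, a helicase of the SMN complex, was the most abundant of them, at 75.9 CPM (609 UMIs) in A0 and 26.6 CPM (192 UMIs) in A10 late spermatids, log2 -1.48, against -0.45 in the other cells. 1600014C10Rik fell from 75 to 5 UMIs (log2 -2.61), and by a like amount in the other cells (-2.22). Also among the 10 lowest were Slc22a20 (-1.46), Galk2, a sugar kinase (-1.24), Smtnl2 (-1.19), AW554918 (-0.96), Metap1d (-0.93), Irf3, an interferon regulator (-0.93), and Jak3 (-0.93). Gss, glutathione synthetase, was highest, at 8.16 CPM in A10 (59 UMIs) against 1.87 in A0 (15 UMIs), log2 1.67, and at 0.82 in the other cells. Speer1 (1.60), from a family of similar copies, and BC029214 (1.21) were higher in the other cells as well (1.77 and 1.06). Piwil1, the PIWI protein of meiotic and round spermatid piRNAs, was at 11.3 CPM (82 UMIs) against 4.74 (38 UMIs), log2 1.10 (0.69 to 1.85), and at 0.15 in the other cells. Znhit6 (1.10), Pelp1 (1.08), Gm34362 (1.01), Ttll4, a tubulin glutamylase (1.00), Shtn1 (0.96) and Igsf5 (0.94) completed the 10 highest. Piwil1 was at 432 CPM in A0 and 421 in A10 spermatocyte cells, and the part of RNA from such cells in its value was not tested. All 10 were at 14.2 CPM or below in the late spermatids of both libraries.

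The number of cells at these scores was compared as a description. In A10, 1016 of 9682 cells (10.5%, 9.89 to 11.1) scored at or above the lowest A0 late spermatid. The A0 count, 700 of 8941 (7.83%), was fixed by the rule and has no interval. The interval of A10 takes the A0 limit as given, so the difference between the shares was not tested. Prm1 is part of the score and was higher in A10 in all sets of cells. With Prm1 and Prm2 left out of the score, 871 A10 cells passed the A0 limit. The count was 1070 without 1700080E11Rik and Cyp2a12, and 1113 without Car2 and Tmod4. The smallest cells had 7687 UMIs in A0 and 6716 in A10, and the lower quartile of the 700 A10 late spermatids was 7570 UMIs. The A10 count therefore includes cells smaller than any A0 cell. Their part in the larger A10 count, and its cause, were not tested. After busulfan, 0 of 4659 B0 cells reached that score, which allows a share of up to 0.0791% (exact binomial), and 7 of 3778 BA10 cells did (0.185%, 0.0745 to 0.381). The median depth was 4214 UMIs per cell in B0 and 17989 in BA10, so the 2 libraries were not compared further.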

How the data were processed

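Testis cells of 4 groups were profiled with 10x Genomics 3′ chemistry, 1 library each (150812974 UMIs in A0 and 143714595 in A10). Per the submitters' processing notes the authors used Cell Ranger 2.2.0 and the mm10 build, and the study's methods name Seurat. The deposited values are natural log values of UMIs per 10000 of the cell plus 1, for 18419 genes and 27060 cells. The forced cell number given in the methods differs from the cells present per library, and the cell calling step remained unclear. UMIs were recovered by undoing the log and dividing by the smallest value above 0 in each cell, taken as 1 UMI, and 100% of values above 0 were whole within 0.001. The table lists 0 mitochondrial genes.

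Here UMIs were summed over the cells of a set, scaled to CPM and compared on log2 of CPM plus 1 (Python 3.11.15, scipy 1.17.1). Genes in under 5% of the cells of both sets were left out. Intervals are exact Poisson for levels, exact binomial for shares and, for ratios of 2 sums, exact conditional on their total, which leaves out the added 1 CPM. Intervals of medians are order statistics. UMIs are molecules, and genes that share sequence are uncertain. The calculation was tested on simulated counts. The added 1 CPM makes fold changes of low genes too small. Scrublet, run through scanpy 1.11.5 with 6% expected doublets, removed no cell. Spermatocyte cells and the neighbouring sets were the 700 cells per library with the highest mean over their own genes. The members and gene lists were chosen with earlier results of these data known. The text names the 6 score genes, listed genes, and the 12 highest and 12 lowest over other cells in both libraries. It also names the 10 highest and lowest in A10 over A0, and the 6 with the largest ratio of the highest over the lowest score quartile. Genes of the transition protein order were chosen after their values were seen, as the largest changes in both libraries plus listed genes. Car3, Cyp2a4, Cyp2a22, H2al1m and H2al2a were not analysed here. One gene that this rule names is not reported here.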

Additional observations from a re-analysis of the deposited data

Results flagged for a closer look

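Among the named genes, 4 went opposite ways between A10 and A0 in late spermatids and in the other cells with both counting intervals clear of 0, and in each case the difference was not tested. Further genes differed in sign with an interval that included 0. Ttll4 was at log2 1.00 in late spermatids and -0.10 in the other cells. Irf3 was at -0.93 and 0.31. Acrv1 was at 0.28 and -0.13. Ubb, a ubiquitin precursor, was at -0.05 and 0.08. For Galk2 the libraries went opposite ways in the contrast of late spermatids with other cells, at 0.34 in A0 and -0.69 in A10, again with both intervals clear of 0 and not tested.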

How the results depend on the processing

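Of 125 values recomputed under other settings, 81 stayed within their interval or within 1.5 times the count and 44 moved, and the cause was not tested. The chromatin packing median of A10 over A0, 0.097 as reported, was 0.1997 with 350 cells, 0.1218 with 1400 cells, 0.1256 with Prm1 and Prm2 out of the score, 0.2261 with the same lowest score in both libraries, 0.07805 as a mean over cells, 0.08009 after thinning, 0.1402 with totals lacking the 6 score genes and 0.1559 after centring. The 8 genes higher and 5 lower in A10 became 23 and 34 with 350 cells, 3 and 10 with 1400 cells, 3 and 10 without Prm1 and Prm2, 3 and 8 without 1700080E11Rik and Cyp2a12, 4 and 8 without Car2 and Tmod4, 15 and 16 with 0.1 CPM added, 0 and 1 with 10 CPM added, 31 and 23 with no filter, and 0 and 1 with a filter of 20% of cells. The higher count was 5 with the same lowest score and 5 after thinning, and the lower count 8 as a mean over cells. The 1016 A10 cells became 571 with 350 cells, 1828 with 1400 cells, 871 without Prm1 and Prm2 and 1113 without Car2 and Tmod4. The ratio of median UMIs was 0.8049 in A0 without Prm1 and Prm2, and 0.8054 in A0 and 0.8344 in A10 without Scrublet calls. Genes lower in late spermatids numbered 3798 in each library with 10 CPM added, 3984 in A0 and 3794 in A10 with the 20% filter, and 1709 and 1514 after centring, which gave 2454 and 2346 higher. No paired analysis was possible because each group was 1 library. Depth limits the rare genes most: a gene at 0 UMIs in the late spermatids is not shown to be absent.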
